A study of Mus musculus with 272 samples.

Results

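The transcriptomes of mouse oocytes arrested at metaphase II (MII, the ovulated egg) were compared with those of zygotes, the fertilized 1-cell embryos. All 4 MII and all 4 zygote transcriptome libraries of the series were used, 8 of its 272 libraries, and they were chosen by stage from the labels without reference to any measured value. Each library came from a pool of 20 cells taken from the batch that was also used for ribosome fractionation. The labels give the stage and name the RNA as polyA RNA. Strain, age, hormone treatment, mode of fertilization and hour of collection are not given in the sources used here. A further pair of library sets was used for comparison: the heavy fractions of the MII and zygote sucrose gradients (3 gradients per stage, about 100 cells each, lysed with cycloheximide to hold ribosomes on their transcripts), and the 4 GV (germinal vesicle, immature oocyte) and 4 2-cell transcriptomes.

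A fully grown oocyte stops transcription before it matures, so the egg and the early zygote run on RNA stored during growth. Translation of that RNA is set largely by its poly(A) tail: elements in the 3′ untranslated region (UTR), among them the cytoplasmic polyadenylation element, direct tails to be lengthened, while the CCR4-NOT deadenylase shortens tails and starts decay. Fertilization releases the metaphase arrest, hardens the zona pellucida against further sperm, forms the pronuclei and is followed by the first, minor wave of embryonic transcription.

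Means are given ± SD over 4 libraries. Transcript levels are CPM (counts scaled to the same library total), a share of each library's 16.7 to 22.4 M reads, and changes are zygote minus MII on the log2(CPM + 1) scale. Because CPM is a share, fewer cells, less RNA per cell and a change in the total of all other transcripts cannot be told apart, and in polyA RNA neither can loss of a transcript and shortening of its tail. Libraries of the same stage correlated at 0.988 to 0.992 (MII) and 0.989 to 0.992 (zygote) across genes, and libraries of different stages at 0.955 to 0.972. Genes with at least 1 CPM numbered 10174 ± 264 in MII and 10349 ± 58.8 in zygote libraries (SD, n = 4, exact permutation test, two-sided p = 0.314). All 12 oocyte markers were detected, with summed levels of 23697 to 27625 CPM in MII and 19224 to 20712 CPM in zygote libraries. Only 11 of the 27 cumulus and granulosa markers listed had values, as did 8 of 25 sperm markers and 6 of 14 oviduct and blood markers. Markers of cumulus and granulosa cells summed to 1474 to 1754 CPM in MII and 1122 to 1516 CPM in zygote libraries, nearly all of it Serpine2. Cyp19a1 (59.29 to 68.62 and 47.93 to 58.62 CPM) and Kitl (5.3 to 12.04 and 3.33 to 6.87 CPM) were also detected in all 8 libraries. Amhr2 and Nr4a1 were at 0 in all 8. Sperm markers summed to 4.08 to 7.23 and 8.72 to 13.7 CPM, and oviduct and blood markers to 4.63 to 8.54 and 5.49 to 8.53 CPM. Of the latter, Epcam (1.41 to 2.32 and 2.72 to 4.14 CPM) and Cd68 (2.90 to 6.80 and 2.39 to 4.39 CPM) were detected in all 8 libraries. Krt18, Hba-a1 and Hba-a2 were at 0.

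Between MII and zygote, 848 genes rose and 656 fell. That is 1504 of the 14642 genes tested, or 10.3%, with 5.79% higher and 4.48% lower (limma, Benjamini-Hochberg adjusted p under 0.05 and a change of at least 1). The median level of the risers was 5.31 CPM in MII and 16.2 CPM in zygotes, where the medians of all genes tested were 4.85 and 5.04 CPM. The fallers went from a median of 29.8 to 11.1 CPM. A change of at least 2 was seen for 103 risers and 45 fallers. The 4 MII and 4 zygote values did not overlap for 830 of the 848 risers and 641 of the 656 fallers. Of all tested genes 32.3% had groups that did not overlap. The genes were called on these same libraries, so their lack of overlap largely follows from the call and is not separate support for it. The number of calls depends on how low values are treated: it was 749 with a pseudocount of 5 CPM in place of 1, and 2408 with DESeq2 on the recovered reads.

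**Figure D1:**
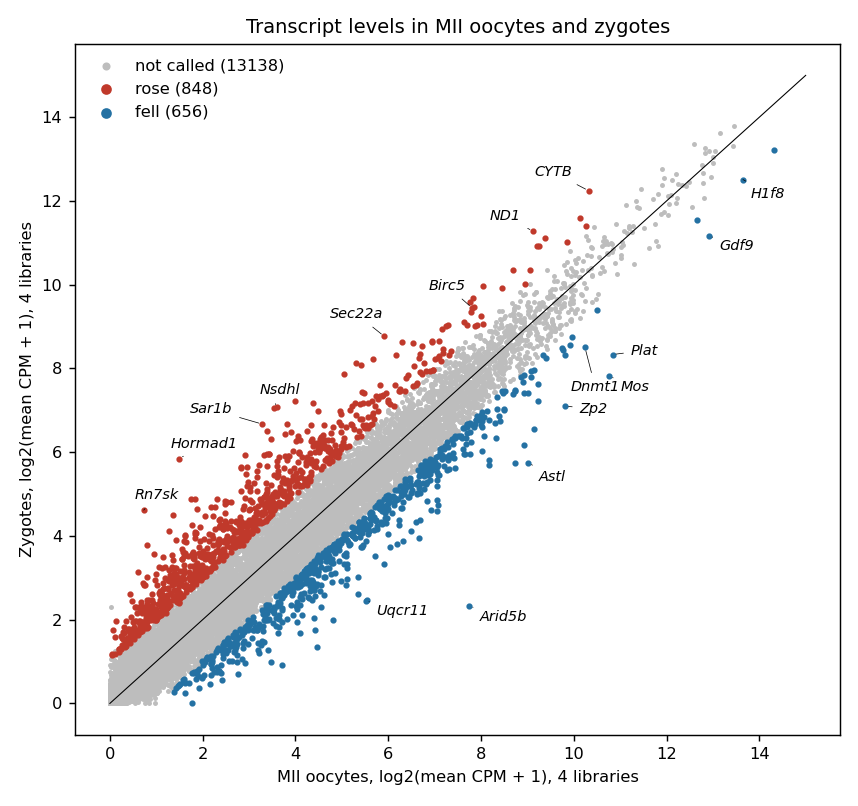
Mean level of each tested gene in 4 MII libraries (x axis) and 4 zygote libraries (y axis), both as log2(mean CPM + 1); red points are the 848 genes that rose, blue points the 656 that fell, grey points those not called, and the line marks equal levels. Among the labelled genes, Arid5b lies furthest below the line, Hormad1 and Rn7sk lie furthest above it at low levels, and the mitochondrial transcripts CYTB and ND1 lie above it at high levels.

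Stretches near the 3′ end are shown for 9 genes that fell, rose or were not called, because elements there direct tail length. All 9 were taken from genes that hold a match to the element searched for below. Of these, Sec22a, Rnf181 and Tpra1 were taken for the size of their change, and the others for their place in oocyte biology. In GENCODE M21 transcripts (GRCm38), 1 transcript per gene, the last 100 bases of the 3′ UTR were searched on the transcript strand for the cytoplasmic polyadenylation element in the forms TTTTAT and TTTTAAT and for the polyadenylation signals AATAAA and ATTAAA, which may overlap each other. The stretches below run 5′ to 3′ with matches in capitals. Genes that fell were the oocyte growth factor Gdf9 (chr11:53437862-53437889, plus strand), the tissue plasminogen activator Plat (chr8:22782752-22782777, plus), Tpra1 (chr6:88912205-88912230, plus), the maintenance DNA methyltransferase Dnmt1 (chr9:20907235-20907260, minus) and the mitotic kinase Aurkb (chr11:69051624-69051649, plus):
Gdf9: gtggTTTTATgtgacggaagAATAAAct
Plat: tataTTTTAATctattttagttttta
Tpra1: tattTTTTAATAAAAATAAAaagagt
Dnmt1: gtagTTTTATatgttgtaatatttct
Aurkb: aacaTTTTATAATAAAgtcttaaatg
Genes that rose were the vesicle transport gene Sec22a (chr16:35311202-35311227, minus) and the ubiquitin ligase Rnf181 (chr6:72359722-72359747, minus):
Sec22a: aggaTTTTATtttgttcctataatta
Rnf181: attcTTTTAATagatataaaaaagta
Genes not called were 2 parts of the decay machinery, the deadenylase adaptor Btg4 (chr9:51119805-51119830, plus) and the deadenylase Cnot7 (chr8:40493036-40493061, minus):
Btg4: ccctTTTTATgtctttttaaaagttt
Cnot7: ggtacaTTTTATatcAATAAAaatac
Because a match was a condition for showing a stretch, these 9 genes do not tell how often one occurs in each direction. Among genes named below, Arid5b, Astl, Mos, Nsdhl and Lsm10 held no match in the window. Zp1 and Zp2 held none either, but their 3′ UTRs of 34 and 49 bases are shorter than the window.

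Across genes the 2 directions differed in how often the letters were found. A TTTTAT or TTTTAAT match stood in the window of 193 of 608 fallers (31.7%), 80 of 678 risers (11.8%) and 2354 of all 12160 genes with a 3′ UTR of at least 100 bases (19.4%). Among genes with a mean of at least 10 CPM in the higher stage the shares were 33.6% of fallers, 13.8% of risers and 24.3% of all. A polyadenylation signal was found in 85.9% of fallers, 75.5% of risers and 81.7% of all. Transcripts of risers were short, with a median of 1783 bases against 2938 for all matched genes and 3065.5 for fallers. Their coding part had a median of 757.5 bases (all genes 1383, fallers 1641) and their 3′ UTR 555.5 bases (all genes 938, fallers 886.5). GENCODE transcripts were matched for 88.3% of tested genes, 86.3% of risers and 96.3% of fallers. Of the 13 genes named below for the size of their fall, Tpra1 and Rtn4r held a match, and of the 18 chosen for the size of their rise 3 did, Rnf181 and Sec22a among them. These shares describe letters in a window of reference transcripts, and which 3′ end is used in oocytes was not measured.

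Genes that coat the egg and block further sperm fell. Of 10 zona pellucida and fertilization genes tested 5 fell (50%, against 4.48% of all genes) and 1 rose (10%, against 5.79%). The median change was -0.88, where the median of all genes was 0. Astl stood at 642, 479, 533 and 419.8 CPM in MII libraries A to D and at 45.1, 72.7, 38.999 and 53.95 CPM in zygote libraries A to D. Astl encodes ovastacin, the cortical granule protease that cuts ZP2 after fertilization, and it fell (change of -3.296 ± 0.30, SE, limma adjusted p = 1.14e-10), with no overlap between stages. Zp1 stood at 697, 568, 270.1 and 408 CPM in MII libraries A to D and at 61.7, 92.5, 63.9 and 67.3 CPM in zygote libraries A to D. Zp2 stood at 1051, 1572, 327 and 638 CPM in MII libraries A to D and at 139, 129, 139.6 and 139 CPM in zygote libraries A to D. Zp1 and Zp2 encode filaments of the zona pellucida. Both fell (-2.68 ± 0.28, SE, limma adjusted p = 1.6e-09 for Zp1 and -2.48 ± 0.33, SE, limma adjusted p = 3.56e-07 for Zp2), and in both the MII libraries A and B were higher than C and D while all 4 lay above every zygote library. Zp3, the third filament, went from 543 ± 166 to 221 ± 29.2 CPM. Plat stood at 2078, 1964, 1793 and 1476 CPM in MII libraries A to D and at 284, 367, 235 and 399 CPM in zygote libraries A to D. Plat, whose stored transcript is a classical case of polyadenylation at oocyte maturation, fell (change of -2.52 ± 0.27, SE, limma adjusted p = 4.4e-09). Izumo1r, the egg receptor for sperm Izumo1 also known as Juno, was the gene of this list that rose, from 62.4 ± 19.4 to 150.3 ± 23.6 CPM. Its call was lost with DESeq2 (adjusted p = 0.0612) and with a pseudocount of 0.1 CPM (limma adjusted p = 0.0975).

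The transcript of Mos, which holds the egg at metaphase II, was lower in zygotes, while most genes of arrest and M-phase exit were not called. Mos stood at 2126, 1694, 1616 and 1527 CPM in MII libraries A to D and at 281, 203, 157 and 256 CPM in zygote libraries A to D. Mos is the kinase that drives MAP kinase signalling and maintains the arrest, and it fell (change of -2.97 ± 0.30, SE, limma adjusted p = 1.49e-09) with no overlap. Of 49 genes of meiotic arrest and M-phase exit 1 rose (2.04%, against 5.79% of all genes) and 42 were not called, with a median change of -0.32. The number that fell was 6 (12.2%, against 4.48% of all genes). Besides Mos these were the MAP kinase Mapk3, from 127 ± 42.4 to 49.4 ± 3.71 CPM, Aurkb, from 33.6 ± 6.85 to 8.43 ± 2.74 CPM, the APC/C ubiquitin-conjugating enzymes Ube2s, from 426 ± 96.9 to 177 ± 62.4 CPM and Ube2c, from 278 ± 37.04 to 126 ± 11.1 CPM, and the phosphatase Cdc25a, from 43.9 ± 12.2 to 20.5 ± 4.34 CPM. Its call was lost in 3 fits that leave out 1 library, Cdc25a (-0.89 without MII A, -0.99 without zygote A and -0.996 without zygote D). Cdc25a was also not called with a pseudocount of 5 CPM or under quantile normalization, nor Mapk3 with a pseudocount of 0.1 CPM (limma adjusted p = 0.065). The gene that rose was Birc5, which encodes survivin of the chromosomal passenger complex together with Aurkb. Birc5 stood at 239, 224, 215 and 216 CPM in MII libraries A to D and at 768, 698, 766 and 548 CPM in zygote libraries A to D. Its change was 1.62 ± 0.11 (SE, limma adjusted p = 6.34e-14), so the transcripts of these 2 partners moved in opposite directions. Cyclin B1 and securin, whose proteins are destroyed at M-phase exit, did not pass at the transcript level: Ccnb1 was at 7992 ± 1211 CPM in MII and 6087 ± 264 CPM in zygotes (limma adjusted p = 0.0938) and Pttg1 at 7781 ± 922 CPM in MII and 9318 ± 1329.7 CPM in zygotes (limma adjusted p = 0.166).

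Oocyte identity genes fell in part. Gdf9 stood at 9445, 6559, 8023 and 6827 CPM in MII libraries A to D and at 1952, 2434, 2019 and 2803 CPM in zygote libraries A to D. Gdf9, the growth factor the oocyte sends to its cumulus cells, fell (change of -1.74 ± 0.24, SE, limma adjusted p = 7.35e-07). Its partner Bmp15 was at 3151 ± 235 CPM in MII and 1880.2 ± 189 CPM in zygotes, a change of -0.75 that stayed under the threshold although the groups did not overlap. Gdf9 was the gene called among 16 oocyte transcription and growth factors (6.25% lower, against 4.48% of all genes). Of 24 genes of the subcortical maternal complex and other maternal-effect genes, 6 fell (25%, against 4.48% of all genes) and 4 rose (16.7%, against 5.79%). The complex itself was split: Khdc3 (Filia) went from 19.4 ± 6.701 to 5.82 ± 1.06 CPM, Nlrp5 (Mater) from 897 ± 130.1 to 319 ± 36.5 CPM and Tle6 from 368 ± 70.9 to 175 ± 45.4 CPM, while Ooep (Floped) rose from 1229.5 ± 271 to 2685 ± 83.2 CPM. Zbed3 fell from 20363 ± 3845 to 9599 ± 3231 CPM and Nlrp14 from 6461 ± 999 to 2987 ± 356 CPM. The others that rose were Uchl1, from 198 ± 46.9 to 556 ± 58.02 CPM, and the oocyte-specific family members Oog1, from 226 ± 54.8 to 824 ± 209 CPM, and Oog4, from 528 ± 80.8 to 1308 ± 140.0 CPM; Oog genes are near-identical copies and their reads could be split between them. Leaving out 1 library ended the call of 3 of these genes: Tle6 (-0.95 without MII A and -0.99 without zygote C), Ooep (0.99 without MII C) and Zbed3 (-0.95 without zygote C). The call of Oog4 was lost with DESeq2 (adjusted p = 0.348) and with a pseudocount of 0.1 CPM (limma adjusted p = 0.286), and those of Nlrp14, Tle6 and Ooep under quantile normalization. H1f8, the oocyte linker histone, fell from 12839 ± 1959.6 to 5843 ± 644 CPM. Of the 12 oocyte markers 7 fell (58.3%) and 1 rose (8.33%), with a median change of -1.16.

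**Figure D2:**
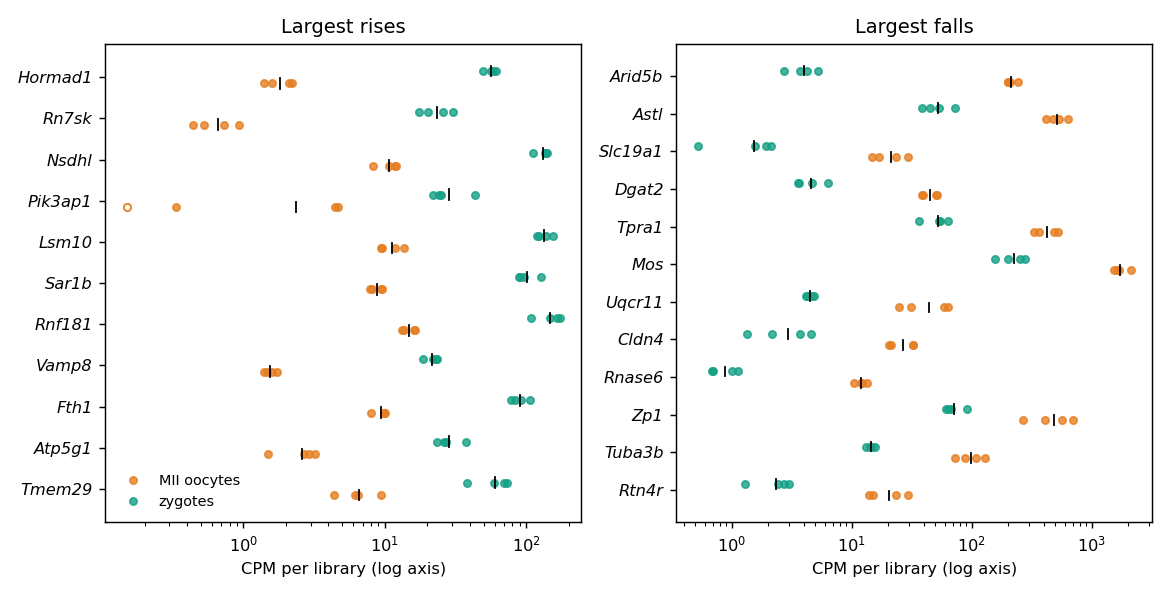
Level of each gene in each library (CPM, log axis) for 11 of the 12 largest rises (left) and the 12 largest falls (right) among genes with a mean of at least 10 CPM in the higher stage; points are single libraries, orange for MII and green for zygote, ticks are means of 4, and the open circle is a library at 0, drawn at the left edge. Genes were taken for this figure only if they were called and their stages did not overlap, and predicted genes and pseudogenes were left out.

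Predicted genes (Gm, LOC and Rik symbols) and pseudogenes were left out of the choice by size. Genes named for size were taken only from the other called genes whose stages did not overlap. Among those with at least 10 CPM in the higher stage, the fall of largest size was that of Arid5b. It encodes a DNA-binding protein of the ARID family. Arid5b stood at 210.4, 245, 200.4 and 200.3 CPM in MII libraries A to D and at 4.29, 3.75, 5.25 and 2.72 CPM in zygote libraries A to D. Its change was -5.45 ± 0.35 (SE, limma adjusted p = 1.85e-14). The other falls of largest size came from several pathways. The folate carrier Slc19a1 went from 21.2 ± 6.82 to 1.53 ± 0.714 CPM, the triglyceride synthesis enzyme Dgat2 from 45.3 ± 7.14 to 4.58 ± 1.32 CPM, and Saraf, an inhibitor of store-operated calcium entry, from 568 ± 96.7 to 93.6 ± 16.9 CPM. The tight junction protein Cldn4 went from 26.9 ± 6.76 to 2.95 ± 1.47 CPM, Rnase6 from 12.05 ± 1.18 to 0.882 ± 0.223 CPM and the Nogo receptor Rtn4r from 20.5 ± 7.204 to 2.37 ± 0.757 CPM. Tpra1 went from 427 ± 92.3 to 52.1 ± 11.3 CPM. Tuba3b, an alpha tubulin with a near-identical copy that makes its count uncertain, went from 99.7 ± 24.5 to 14.5 ± 1.02 CPM.

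By the same measure the rise of largest size was that of Hormad1, a protein of the meiotic chromosome axis. Hormad1 stood at 1.402, 2.12, 2.205 and 1.58 CPM in MII libraries A to D and at 49.8, 61.5, 56.4 and 58.5 CPM in zygote libraries A to D. Its change was 4.35 ± 0.30 (SE, limma adjusted p = 1.09e-13), or 30.9-fold in CPM. Of the 29 genes of meiotic prophase tested 2 rose (6.90%, near the 5.79% of all genes) and none fell (4.48% of all genes fell). The 2 were Hormad1 and Mei4 (from 7.697 ± 1.81 to 17.2 ± 5.24 CPM). The call of Mei4 was lost with either other pseudocount, under quantile normalization, with edgeR and with DESeq2, and in 4 fits that leave out 1 library, Mei4 (0.91 without MII A, 1.03 without MII B, 1.02 without zygote B and 0.88 without zygote C). Rn7sk stood at 0.438, 0.725, 0.938 and 0.528 CPM in MII libraries A to D and at 30.5, 20.2, 25.9 and 17.6 CPM in zygote libraries A to D. Rn7sk is the 7SK RNA, a noncoding RNA of RNA polymerase III without a poly(A) tail that holds the elongation factor P-TEFb inactive, and it changed by 3.87 ± 0.24 (SE, limma adjusted p = 6.13e-15). 18S ribosomal RNA, another transcript without a tail, took 0.0334% ± 0.00961 of the CPM total in MII and 0.0657% ± 0.0148 in zygote libraries (SD, n = 4, exact permutation test, two-sided p = 0.02857, the smallest that 4 against 4 can give, and 0.0571 adjusted over 4 measures). The part of untailed RNA in the rises was not tested.

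The other rises of largest size were spread over membrane traffic, metabolism and RNA processing. Nsdhl stood at 10.6, 12.04, 8.21 and 11.8 CPM in MII libraries A to D and at 136, 138, 142 and 112 CPM in zygote libraries A to D. Nsdhl is a sterol dehydrogenase of cholesterol synthesis and changed by 3.52 ± 0.33 (SE, limma adjusted p = 2.32e-10). Lsm10 stood at 13.8, 11.8, 9.48 and 9.61 CPM in MII libraries A to D and at 124, 138, 156 and 119 CPM in zygote libraries A to D. Lsm10 is a subunit of the U7 particle that trims histone transcripts, and it changed by 3.48 ± 0.25 (SE, limma adjusted p = 3.15e-13). Sar1b stood at 7.84, 8.14, 9.57 and 9.46 CPM in MII libraries A to D and at 97.4, 90.1, 127 and 88.6 CPM in zygote libraries A to D. Sar1b is the GTPase that forms COPII vesicles at the endoplasmic reticulum, and it changed by 3.37 ± 0.16 (SE, limma adjusted p = 7.01e-17). The vesicle fusion protein Vamp8 went from 1.55 ± 0.142 to 21.7 ± 2.24 CPM, the ferritin heavy chain Fth1 from 9.44 ± 0.946 to 89.97 ± 12.5 CPM, the ubiquitin ligase Rnf181 from 14.9 ± 1.64 to 148 ± 29.1 CPM and Tmem29 from 6.58 ± 2.07 to 60.2 ± 15.9 CPM. Pik3ap1, an adaptor of phosphoinositide 3-kinase, varied most among these genes in the egg, with 4.69, 0.334, 4.46 and 0 CPM in MII libraries A to D against 24.8, 21.9, 24.2 and 43.7 CPM in zygote libraries A to D. Among genes with at least 200 CPM in the zygote, taken in the same way, Sec22a showed the rise of largest size. Sec22a stood at 52.01, 58.9, 58.2 and 68.04 CPM in MII libraries A to D and at 442, 446, 467 and 384 CPM in zygote libraries A to D. It was followed by the mitochondrial ribosomal protein Mrpl48 (31.9 ± 5.796 to 233 ± 26.3 CPM), the chemerin receptor Gpr1 (38.6 ± 6.13 to 279.8 ± 46.2 CPM), Cript (41.9 ± 6.22 to 272 ± 36.2 CPM), the cristae organizing factor Apoo (49.7 ± 5.69 to 300.2 ± 33.3 CPM) and Oser1 (78.1 ± 6.48 to 395 ± 66.9 CPM).

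Transcripts of the mitochondrial genome rose together. All 13 mitochondrially encoded messages were called higher, with changes from 1.14 (COX1) to 2.17 (ND1) and a median of 1.82. ND1 stood at 318, 579, 604 and 726 CPM in MII libraries A to D and at 2352, 1631, 3177 and 2764 CPM in zygote libraries A to D. CYTB stood at 924, 1257, 1237 and 1707 CPM in MII libraries A to D and at 4582, 3337, 6583 and 4894 CPM in zygote libraries A to D. ND1 is a subunit of respiratory complex I and CYTB of complex III, and in both every zygote library lay above every MII library. The 13 messages together took 0.355% ± 0.0815 of the CPM total in MII and 1.22% ± 0.313 in zygote libraries (SD, n = 4, exact permutation test, two-sided p = 0.02857, the smallest possible here, and 0.0571 adjusted over 4 measures). With a pseudocount of 5 CPM 11 of the 13 were called and under quantile normalization 12. The exception there, COX1, was also lost without 1 library: COX1 (0.98 without zygote C). Scaling CPM without mitochondrial and ribosomal RNA genes left 1497 called genes in all.

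**Figure D3:**
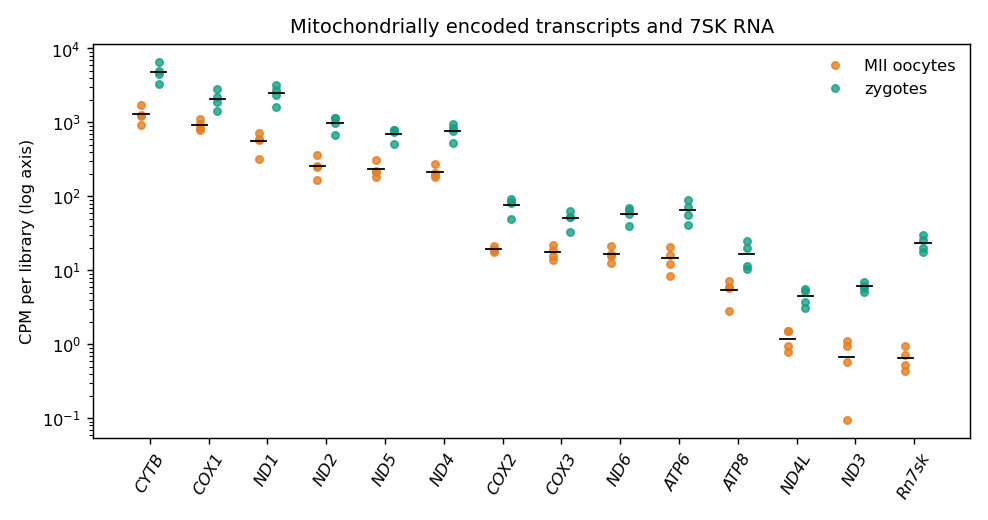
Level of the 13 mitochondrially encoded messages and of the noncoding 7SK RNA (Rn7sk) in each of 4 MII (orange) and 4 zygote (green) libraries, in CPM on a log axis, with the mean as a line. Every zygote library lies above every MII library for each of the 14 transcripts.

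Nuclear genes of respiration rose more often than they fell. Of 87 nuclear oxidative phosphorylation subunits 21 rose and 4 fell, with a median change of 0.39. Atp5g1 stood at 2.94, 3.23, 1.501 and 2.69 CPM in MII libraries A to D and at 27.2, 26.3, 37.8 and 23.3 CPM in zygote libraries A to D. Atp5g1, a gene for the c subunit of ATP synthase, changed by 3.05 ± 0.19 (SE, limma adjusted p = 1.26e-14). The complex I subunit Ndufa8 rose from 3.83 ± 0.767 to 24.8 ± 5.69 CPM and the ATP synthase subunit Atp5j2 from 2.86 ± 0.783 to 17.6 ± 4.997 CPM. In the other direction Uqcr11 stood at 59.3, 63.3, 24.9 and 31.01 CPM in MII and at 4.19, 4.27, 4.67 and 4.83 CPM in zygote libraries A to D. Uqcr11, a subunit of complex III, changed by -2.95 ± 0.21 (SE, limma adjusted p = 3.62e-13), and MII libraries A and B stood above C and D. The complex I subunits Ndufa1 and Ndufa11 fell from 77.3 ± 12.7 to 24.3 ± 1.75 CPM and from 35.3 ± 7.32 to 12.9 ± 2.92 CPM. Cytosolic ribosomal proteins were similar: 17 of 87 rose (19.5%, against 5.79% of all genes) and 3 fell (3.45%, against 4.48%), with a median of 0.37. Rps27a rose from 0.589 ± 0.216 to 4.05 ± 1.36 CPM and Rpl39l from 5.58 ± 1.15 to 19.3 ± 2.63 CPM, while Rpl41 fell from 64.9 ± 23.4 to 12.4 ± 2.53 CPM and Rplp1 from 20.6 ± 7.83 to 6.01 ± 0.823 CPM. Many of these genes have processed copies in the genome, so their counts are uncertain where reads could be split. With a pseudocount of 5 CPM Rps27a was not called, and the counts were 13 higher and 3 lower for respiration and 3 higher and 2 lower for ribosomal proteins.

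**Figure D4:**
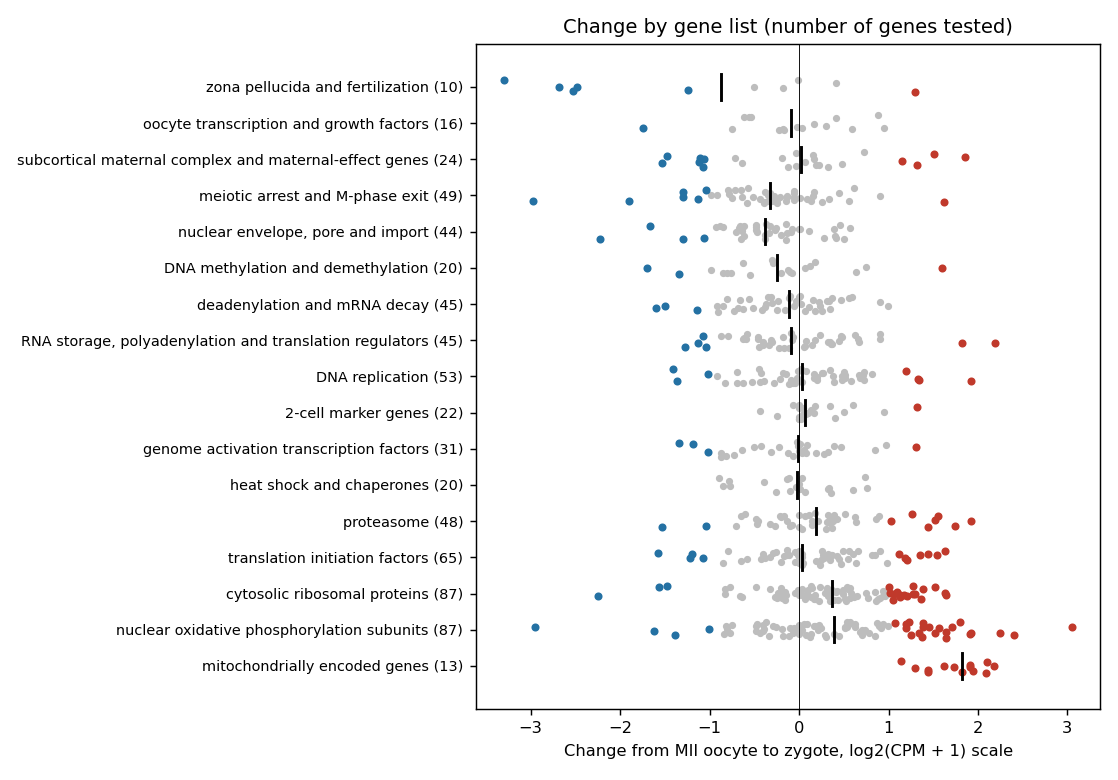
Change of each tested gene from MII to zygote (log2(CPM + 1) scale, x axis) in 17 gene lists, with the number of genes tested in brackets; red points rose, blue points fell, grey points were not called, and the black tick is the list's median. All 13 mitochondrial messages lie above a change of 1, and 5 of 10 zona pellucida and fertilization genes lie below -1.

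Most genes of the machinery that acts on stored RNA were not called, as held for all genes. Of 45 genes of deadenylation and decay none rose and 3 fell (6.67%, against 4.48% of all genes): the decay helicase Upf1 from 44.7 ± 15.01 to 13.7 ± 2.97 CPM, the exonuclease Dis3l from 67.2 ± 19.4 to 22.6 ± 3.74 CPM and Tob2 from 41.5 ± 8.92 to 18.2 ± 2.95 CPM. Btg4 stood at 10018, 11788, 11601 and 11245 CPM in MII libraries A to D and at 14537, 13424, 14422 and 14367 CPM in zygote libraries A to D. Btg4, which brings CCR4-NOT to maternal transcripts, was thus higher in every zygote library, but its change of 0.35 did not pass (adjusted p = 0.246). Cnot7 was at 1776 ± 381 CPM in MII and 2037 ± 163 CPM in zygotes, with overlapping groups. Among 45 regulators of RNA storage and translation 2 rose (4.44%, against 5.79% of all genes) and 4 fell (8.89%, against 4.48%). Cpsf4l rose from 11.1 ± 1.91 to 54.7 ± 11.3 CPM and Zar1l from 29.7 ± 9.298 to 104 ± 9.198 CPM. The poly(A)-binding proteins Pabpn1l and Pabpc1 fell from 539 ± 87.02 to 246 ± 41.8 CPM and from 5.59 ± 2.83 to 1.56 ± 0.617 CPM, although for Pabpc1 the groups overlapped, Cpeb1, which binds the polyadenylation element, fell from 217 ± 18.04 to 104 ± 19.4 CPM, and Igf2bp2 from 323 ± 36.9 to 157 ± 24.9 CPM. Without 1 library 2 of these calls were lost: Cpeb1 (-0.98 without zygote A) and Igf2bp2 (-0.96 without MII A, -0.995 without zygote A and -0.97 without zygote C). Cpeb1 and Igf2bp2 also lost the call under quantile normalization, Igf2bp2 with edgeR, Tob2 and Pabpc1 with a pseudocount of 5 CPM and Pabpn1l with one of 0.1 CPM. Dazl was at 2324 ± 239 CPM in MII and 2611 ± 139 CPM in zygotes and was not called.

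Genes of chromatin and the forming pronuclei moved in both directions. Dnmt1 stood at 1465, 1435, 805 and 1132 CPM in MII libraries A to D and at 356, 358, 358 and 377 CPM in zygote libraries A to D. Dnmt1 fell (change of -1.698 ± 0.18, SE, limma adjusted p = 1.82e-09). Uhrf1, its guide to replicating DNA, was at 205 ± 39.4 CPM in MII and 112 ± 12.5 CPM in zygotes and was not called, and Tet3, the oxidase of the paternal pronucleus, was at 505 ± 141 CPM in MII and 336 ± 26.6 CPM in zygotes with overlapping groups. Zfp57 stood at 459, 387, 410.0 and 398 CPM in MII libraries A to D and at 1415, 1921, 842 and 1078 CPM in zygote libraries A to D. Zfp57, the zinc finger protein that keeps imprints, rose (change of 1.601 ± 0.24, SE, limma adjusted p = 3.23e-06). Among 44 genes of the nuclear envelope, pore and import none rose (5.79% of all genes did) and 4 fell (9.09%, against 4.48%), with a median change of -0.38. Lbr stood at 129.7, 144, 127 and 129.9 CPM in MII libraries A to D and at 26.5, 30.7, 22.1 and 31.8 CPM in zygote libraries A to D. Lbr, the lamin B receptor, fell (change of -2.23 ± 0.14, SE, limma adjusted p = 6.13e-15), Lmna fell from 28.1 ± 4.72 to 11.1 ± 3.37 CPM, Nup88 from 257 ± 34.8 to 123 ± 17.7 CPM, and Rcc1, the chromatin-bound exchange factor for Ran, from 24.1 ± 6.14 to 7.16 ± 3.38 CPM. The histone chaperone genes Cabin1 and Ubn1 of the HIRA complex fell from 84.6 ± 24.9 to 29.6 ± 3.62 CPM and from 80.7 ± 24.2 to 35.8 ± 5.77 CPM, Daxx fell from 26.5 ± 4.52 to 12.4 ± 1.15 CPM, and Chaf1b of the replication-coupled chaperone rose from 2.296 ± 0.266 to 6.898 ± 0.371 CPM. Leaving out 1 library ended 3 of these calls: Nup88 (-0.97 without MII A and -0.998 without zygote A), Ubn1 (-0.93 without MII A) and Daxx (-0.95 without MII A, -0.99 without MII C, -0.99 without zygote C and -0.99 without zygote D). Under quantile normalization Nup88, Ubn1 and Daxx were not called, and with a pseudocount of 5 CPM Daxx, Chaf1b and Ccne1 were not. Of 53 replication genes 4 rose (7.55%) and 3 fell (5.66%), shares near those of all genes (5.79% and 4.48%). Gins1 of the replicative helicase rose from 7.98 ± 0.917 to 32.9 ± 1.92 CPM, and the cyclin gene Ccne1 fell from 7.46 ± 1.33 to 2.35 ± 1.01 CPM.

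Genes of embryonic genome activation were mostly not called, and their levels differed widely, with the Obox genes among the highest. Of 22 markers of the 2-cell stage only Zscan4d rose (4.55%, against 5.79% of all genes), from 4.44 ± 3.46 to 11.7 ± 5.34 CPM. Of the 22, 6 had at most 3 reads in each of the 8 libraries. The number called higher was 3 with edgeR or a pseudocount of 0.1 CPM, 4 with DESeq2 and 0 with a pseudocount of 5 CPM. For Zscan4d 1 MII library (9.56 CPM) lay within the zygote range. Members of this family are near-identical and their reads could be split. The mean of Zscan4d at the 2-cell stage was 1223 CPM. Of 31 transcription factors linked to genome activation 1 rose (3.23%, against 5.79% of all genes) and 3 fell (9.68%, against 4.48%). Dppa4 rose from 1.48 ± 0.464 to 5.26 ± 1.97 CPM, while Klf17 fell from 872 ± 127 to 348 ± 87.1 CPM. Dppa5a fell from 62.6 ± 30.99 to 23.996 ± 2.25 CPM and Smarca4 from 23.8 ± 8.47 to 10.9 ± 1.66 CPM. Fits without 1 library lost 2 of these calls, Dppa5a (-0.94 without MII A) and Smarca4 (-0.81 without MII A, -0.98 without MII B and -0.91 without zygote A). With a pseudocount of 5 CPM Zscan4d, Dppa4 and Smarca4 were not called, and Smarca4 also not under quantile normalization or without mitochondrial and ribosomal RNA genes. Obox5, of a family of near-identical homeobox genes, was at 9070.5 ± 744 CPM in MII and 12583 ± 849.6 CPM in zygotes and was not called. Of the sperm markers Prm2, a protamine, rose from 2.09 ± 0.503 to 6.05 ± 1.91 CPM. Its call was lost with a pseudocount of 0.1 or 5 CPM and with edgeR.

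Stage means over the series place the comparison in development. The median riser stood at 53.1 CPM in GV oocytes, 5.31 in MII, 16.2 in zygotes and 29.5 in 2-cell embryos. The medians of all genes tested at these stages were 8.89, 4.85, 5.04 and 9.08 CPM, also lower in MII and zygotes. Each median was taken over the group at that stage and does not follow a single gene. Nsdhl stood at 137, 10.7, 132 and 120.0 CPM in GV, MII, zygote and 2-cell, and Lsm10 at 310.2, 11.2, 134 and 240.4 CPM in GV, MII, zygote and 2-cell. Sec22a stood at 499.5, 59.3, 435 and 262 CPM in GV, MII, zygote and 2-cell. Hormad1 had another course, at 2.01, 1.83, 56.6 and 57.2 CPM in GV, MII, zygote and 2-cell, with a low level in GV oocytes too. The median faller stood at 20.95 CPM in GV oocytes, 29.8 in MII, 11.1 in zygotes and 11.6 in 2-cell embryos. Mos stood at 1213, 1741, 224 and 8.005 CPM in GV, MII, zygote and 2-cell, Gdf9 at 5666, 7713, 2302 and 352 CPM in GV, MII, zygote and 2-cell and Plat at 1736, 1828, 321 and 27.8 CPM in GV, MII, zygote and 2-cell. Arid5b differed, at 18.5, 214, 4.003 and 10.3 CPM in GV, MII, zygote and 2-cell, so its level in MII stood apart from both neighbouring stages. The MII and zygote values in these courses are those already compared.

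**Figure D5:**
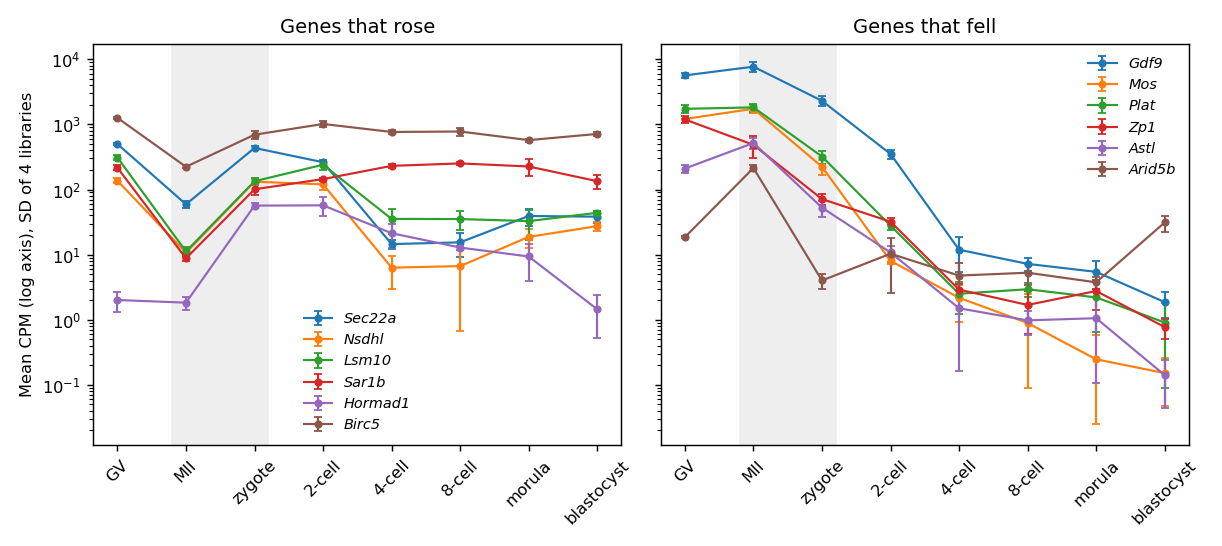
Mean CPM (log axis) at the 8 stages for 6 genes that rose (left) and 6 that fell (right) between MII and zygote, shaded; bars are the SD of 4 libraries, and a lower bar that would reach 0 is cut short above it on the log axis. Sec22a, Nsdhl, Lsm10, Sar1b and Birc5 have a lower mean in MII than in GV oocytes and zygotes, Hormad1 is low in GV and MII, and 5 of the 6 genes on the right have a lower mean at the 2-cell stage than in zygotes.

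The GV and 2-cell libraries were also compared directly (limma, same thresholds). Their levels do not enter the change from MII to zygote, but they were in the same fit and helped set its filter and its estimate of the spread. From GV to 2-cell 41% of genes were called, 20.8% higher and 20.2% lower in 2-cell embryos. Of the 848 risers 345 (40.7%) were lower in 2-cell embryos than in GV oocytes and 102 (12.03%) were higher. Of the 656 fallers 290 (44.2%) were lower and 50 (7.62%) higher. Both directions were thus more often lower at the 2-cell stage than all genes were.

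The heavy gradient fractions gave a second readout from other libraries. Fractions 6 to 10 were averaged per gradient as the side where transcripts with many ribosomes sediment, and 216 of 14524 genes (1.49%) were called between MII and zygote, 0.84% higher and 0.647% lower. Of the 843 transcriptome risers tested there 51 were higher and 1 lower, with a median change of 0.88. Of the 652 fallers 22 were lower and 1 higher, with a median of -0.53, where the median of all genes was 0.04. The 3 MII and 3 zygote gradients did not overlap for 375 risers in the higher direction (44.5%, against 13.9% of all genes) and for 215 fallers in the lower direction (33.0%, against 9.61%). With only the MII and zygote gradients in the fit the counts were 187 higher and 4 lower of 810 risers, and 98 lower and 3 higher of 632 fallers. In that fit 489 were higher and 271 lower of the 10904 genes that were also in the transcriptome test.

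Named risers that were also called higher in the heavy fractions included genes of several roles. Heavy-fraction levels of Rnf181 were 71.4, 47.3 and 78.6 CPM in MII and 599.8, 799.9 and 335 CPM in zygote gradients. Heavy-fraction levels of Fth1 were 68.1, 17.5 and 54.2 CPM in MII and 272, 298 and 188 CPM in zygote gradients. Heavy-fraction levels of Gpr1 were 77.8, 84.3 and 81.8 CPM in MII and 590.2, 666 and 247 CPM in zygote gradients. In these 3 genes every zygote gradient was above every MII gradient (changes of 3.06, 2.59 and 2.49, limma adjusted p = 0.000362, 0.000884 and 0.0209). Vamp8, Atp5g1, Psmf1, H2az2 and the noncoding Rn7sk were called higher too, with changes of 2.72, 2.08, 1.84, 2.06 and 3.07. Heavy-fraction levels of Hormad1 were 3.998, 0 and 1.17 CPM in MII and 6.39, 0 and 0.0425 CPM in zygote gradients. Hormad1 therefore showed no rise there beside its transcriptome rise, and its groups overlapped.

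Among fallers the heavy fractions moved the same way for many named genes but seldom passed. Heavy-fraction levels of Mos were 1907, 3223 and 2069 CPM in MII and 321, 409 and 302 CPM in zygote gradients. Heavy-fraction levels of Zp2 were 824, 1037 and 1046 CPM in MII and 110.1, 53.3 and 56.2 CPM in zygote gradients. Heavy-fraction levels of Gdf9 were 10173, 15732 and 11111 CPM in MII and 3569, 4151 and 2532 CPM in zygote gradients. In all 3 genes the stages did not overlap, and none was called: the changes were -2.77, -3.78 and -1.86 with adjusted p of 0.149, 0.121 and 0.523. Dgat2, Uqcr11, Rpl41, Khdc3 and Dppa5a were called lower, with changes of -2.01, -3.11, -3.11, -2.43 and -2.66. Heavy-fraction levels of Arid5b were 35.3, 30.4 and 57.7 CPM in MII and 15.1, 28.3 and 41.03 CPM in zygote gradients. The groups of Arid5b overlapped in the heavy fractions, although its transcriptome fall was the largest of those named for size. For ribosomal proteins and respiration the medians of the 2 readouts had opposite signs. Of all genes tested in the heavy fractions 0.647% were called lower and 0.84% higher. Of 86 cytosolic ribosomal protein genes tested in the heavy fractions 12 were lower and none higher, with a median of -0.60, beside 17 higher and 3 lower in the transcriptome. Of 87 nuclear oxidative phosphorylation genes 5 were lower and 2 higher there, with a median of -0.30. The 13 mitochondrial messages had no call there and a median of 0.36. The difference between the 2 readouts was not itself tested.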

How the data were processed

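CPM values, which scale the reads of each gene to the total of its library, were deposited for 15854 gene symbols in 272 libraries. Per the submitters' processing notes the tools were Trim Galore 0.6.7, FastQC, HISAT2 2.2.1, featureCounts 2.0.1 and edgeR on GRCm39; their settings and the annotation are not given in the sources used here. Per the labels' protocols, RNA was amplified with a Smart-seq kit and sequenced as paired ends without molecular identifiers, so counting precision covers reads and not molecules. The kit does not mark strand, so a gene and an antisense partner cannot be told apart. In the 32 transcriptomes 100% of values were whole multiples of 1 read (tolerance 0.05 reads), and these recovered read counts were used for the count models. A count of 3 reads corresponds to 0.131 to 0.175 CPM in the 8 libraries. Of 76 groups of symbols with identical values 1 symbol each was kept, which left 15771. These repeats lift some column sums above the nominal CPM total, so 9 deposited columns (none of MII or zygote) were recorded as signal, which the authors had scaled to CPM like the rest. The 2-cell columns carry letters that match no replicate letter of the labels and were used by stage only.

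The main test was limma 3.58.1 (R 4.3.3; mean-variance trend) on log2(CPM + 1), which understates the change of low genes, with all 32 transcriptomes in 1 fit, for genes with at least 1 CPM in at least 4 libraries. A gene was called at a Benjamini-Hochberg adjusted p under 0.05 and a change of at least 1. The heavy fractions 6 to 10 (10.8 to 29.4 M reads per MII or zygote library) were averaged per gradient and fitted the same way over 24 gradient means. The script was tested on simulated data. Alternatives were other pseudocounts and filters, quantile normalization, the 2 groups alone, a replicate block, CPM without mitochondrial and ribosomal RNA genes, edgeR 4.0.16 and DESeq2 1.42.0 on recovered reads, fractions 7 to 10, and each library left out. Per the series' design text the pools of a stage were taken from the same batch, and no source used here says that they had separate donors, so p-values measure the spread between pools, which may be technical.

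The gene lists and the comparison were chosen with earlier results of these data known. Genes were named by rule: of called genes with stages that do not overlap, the 12 largest rises and falls with a mean of at least 10 CPM and the 6 largest each with at least 200 CPM in the higher stage, and per list the 3 largest called changes and the 2 most abundant genes not called. Predicted genes (Gm, LOC and Rik symbols) and pseudogenes were left out of the choice by size. Another 28 called list members were named after their values were seen, and the transcript features were chosen after them too. Transcript features came from GENCODE M21 on GRCm38, 1 principal transcript per gene, which is not the authors' build. Of the items chosen, 1 gene and 1 sequence are not reported here.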

Additional observations from a re-analysis of the deposited data

Results flagged for a closer look

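In 338 groups of 4 libraries (165 named genes and 4 library measures at 2 stages), 21 held a library whose gap to its nearest neighbour took up more of the group's range than Dixon's 95% critical value allows, which chance gives in about 1 of 20 groups. In MII libraries the high ones were Btg2 (29.0 CPM, the other 3 at 18.8 to 20.2), Igf2bp2 (378, the others 300.0 to 309.7), Psmd3 (82.5, the others 47.4 to 50.0), Uchl1 (267, the others 167 to 182) and Zar1 (1171, the others 529 to 627). The low ones in MII were Fth1 (8.03, the others 9.85 to 10.0), H3f3b (1932, the others 2594 to 2623), Itga6 (92.4, the others 153 to 164), Mrpl48 (23.3, the others 34.2 to 35.2), Npm1 (826, the others 926 to 936) and Obox5 (7967, the others 9315 to 9582). In zygote libraries the high ones were Cdc25a (27.0, the others 18.04 to 18.68), Dnmt1 (377, the others 356 to 358), Nup35 (923, the others 748 to 777), Pik3ap1 (43.7, the others 21.9 to 24.8), Rcc1 (12.2, the others 4.98 to 6.11), Zar1 (638, the others 442 to 463) and Zp3 (265, the others 201 to 211). The low ones there were Btg4 (13424, the others 14367 to 14537), Tdrd12 (332, the others 391 to 397) and Zp2 (129, the others 139 to 139.6). For Zar1 the high library was A in MII and B in zygotes, and its groups overlapped.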

How the results depend on the processing

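Of 114 named genes that were called, 75 were called under every alternative run and 39 lost the call under at least 1, most often with a pseudocount of 5 CPM or under quantile normalization; no named gene changed direction. Syce2, not called in the report, was called under 4 alternatives. The 1504 calls between MII and zygote (848 higher, 656 lower) became 749 (397 and 352) with a pseudocount of 5 CPM; 1275 genes were higher with a pseudocount of 0.1 CPM, 1401 with edgeR (2195 called) and 1474 with DESeq2 (2408 called). Without 1 library the calls ranged from 1408 to 1613, from 787 to 949 higher and from 533 to 772 lower. The 216 calls in the heavy fractions (122 higher, 94 lower) became 766 (492 and 274) with only the MII and zygote gradients in the fit, and 158 genes were lower under quantile normalization. When 1 gradient was left out they ranged from 140 (without MII A) to 202 called, from 76 (without MII A) to 121 higher and from 64 to 106 lower. From GV to 2-cell, 3982 genes were called and 1871 were higher with a pseudocount of 5 CPM. With 1 library left out the permutation tests cannot go below 0.0571, so no measure passed; the difference in mitochondrial share then ran from 0.740 to 0.991 percentage points and that in 18S share from 0.0252 to 0.0364. The cause of these changes was not tested. Replicate letters did not pair MII with zygote libraries (correlations of same-letter deviations -0.05, -0.18, -0.18 and 0.07), nor gradients (0.02, 0.06 and 0.04). With the replicate block, fitted on the 2 groups alone, 1491 genes were called, as without it on those groups, and in the heavy fractions 843 (541 higher, 302 lower). No paired analysis was possible for GV and 2-cell because their columns share no replicate letters. Low genes are limited by depth: 3 reads stand for 0.131 to 0.175 CPM.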

Other observations

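Of all genes tested 5.79% rose and 4.48% fell. Of 48 proteasome genes 7 rose (14.6%) and 2 fell (4.17%): the inhibitor subunit Psmf1 rose from 15.8 ± 3.66 to 63.4 ± 15.4 CPM, the base ATPase Psmc2 from 18.3 ± 6.22 to 54.2 ± 11.9 CPM and the core subunit Psmb7 from 1.195 ± 0.369 to 6.37 ± 1.32 CPM, while Psmd3 fell from 57.1 ± 16.9 to 18.6 ± 2.32 CPM and Psmb3 from 211 ± 34.7 to 102 ± 11.99 CPM. Psmb3 lost its call without 1 library, Psmb3 (-0.96 without MII A, -0.98 without MII C and -0.96 without zygote C). Of 65 translation initiation factor genes 7 rose (10.8%) and 4 fell (6.15%), with a median change of 0.03. Eif2s1, the alpha subunit of eIF2 that stress kinases phosphorylate, rose from 46.2 ± 5.46 to 144 ± 14.5 CPM, and Eif1ax rose from 19.2 ± 5.61 to 56.1 ± 7.03 CPM while its paralog Eif1a fell from 4.13 ± 1.88 to 0.704 ± 0.484 CPM. The counts for this list were 3 and 3 with a pseudocount of 5 CPM, where Eif1a and Psmb7 were not called. Psmb3 was also not called under quantile normalization.

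Of 54 histone genes 6 rose (11.1%) and 1, H1f8, fell (1.85%). The variant H2az2 rose from 4.403 ± 1.03 to 16.8 ± 2.3 CPM, and H2bc1 and H2bc12 from 0.491 ± 0.173 to 3.45 ± 1.07 CPM and from 0.274 ± 0.2198 to 2.88 ± 1.17 CPM; histone genes of 1 type are near-identical and most lack poly(A) tails. Of 30 immediate early genes none rose and 3 fell (10%), with Gadd45b going from 5.73 ± 2.07 to 0.622 ± 0.388 CPM, Klf10 from 9.11 ± 1.68 to 2.99 ± 1.69 CPM and Dusp1 from 325 ± 83.4 to 129.8 ± 25.9 CPM. Of 24 calcium signalling genes 1 rose (4.17%) and 3 fell (12.5%). Calm2 rose from 75.1 ± 15.7 to 182 ± 37.3 CPM, and Camk2g fell from 75.5 ± 12.4 to 35.7 ± 13.9 CPM. Prkcb fell from 4.03 ± 0.433 to 1.502 ± 0.986 CPM and Trpm7 from 47.5 ± 11.2 to 21.9 ± 3.92 CPM. Camk2g, the kinase form that carries the calcium signal at egg activation, lost its call without 1 library, as did the others that fell: Camk2g (-0.99 without zygote C and -0.97 without zygote D), Prkcb (-0.84 without zygote B) and Trpm7 (-0.94 without MII B and -0.995 without zygote B). Quantile normalization ended the calls of Camk2g and Trpm7, and a pseudocount of 5 CPM those of H2bc1, H2bc12, Gadd45b, Klf10, Prkcb and Trpm7. Prkcb was also not called with a pseudocount of 0.1 CPM, edgeR or DESeq2. Of 26 small RNA pathway genes 1 rose (3.85%) and none fell. It was Mael, a piRNA pathway factor, which went from 11.4 ± 2.45 to 58.1 ± 6.51 CPM. Of 20 heat shock and chaperone genes limma called 0, with 10 at an unadjusted p under 0.05, edgeR called 0 and DESeq2 called 1 higher and 1 lower.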
